A study of Mus musculus with 7 samples.

Results

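Interferon-stimulated genes are the genes that a cell switches on when interferon reaches it, and a list of 40 of them was examined in mouse fat cells that had differentiated with or without an inhibitor of stearoyl-CoA desaturase (SCD). A gene of the list counted as measured where the array annotation gave a transcript cluster that gene's symbol and no other. Where a gene had more than 1 such cluster, that with the highest mean level over the 7 arrays was used. By this rule 35 of the 40 genes were measured, out of 18820 genes in all. Parp9, Dtx3l, Ifi204 and Ifi47 lay only on clusters with several symbols and are given separately, and Ifi44 was not analysed here.

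The cells were 3T3-L1, an established mouse line that can be turned into fat cells in culture, so a single line stands for the tissue. Differentiation ran for 7 days, with isobutylmethylxanthine, dexamethasone and human insulin during the first 2 days and insulin afterwards. In the inhibitor group (3 samples) a commercially available SCD inhibitor, not named in the labels, was present at 1 µM from start to end, and the DMSO group (4 samples) received the same volume of solvent. RNA of day 7 was hybridised to Affymetrix whole-transcript arrays, 1 array per sample, and levels are log2 values made with RMA, a method that brings arrays to a common scale. The material is labelled pre-adipocyte, whereas the design text speaks of adipocytes. No label says that replicates were separate cultures, so a p-value here covers sample-to-sample spread that may be purely technical. SCD turns saturated into monounsaturated fatty acids.

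Type I interferons bind a receptor made of IFNAR1 and IFNAR2, whose kinases JAK1 and TYK2 phosphorylate transcription factors that include STAT2. STAT2 joins IRF9 in a complex that binds the interferon-stimulated response element in the promoters of target genes. The products of those genes detect foreign RNA and DNA, modify proteins with the ubiquitin-like ISG15, block steps of viral replication and, in the case of USP18 and the SOCS proteins, damp the receptor's signal.

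The response element core, 2 copies of GAAA with any 2 bases between them, was searched on both strands of the promoters that RefSeq gives for mouse assembly GRCm38.p6, from 250 bases before to 50 bases after each start. The promoters of 4 members are printed in the direction of the gene because they belong to members the results turn on, and capitals mark the cores.
Ifi205, chr1:174031706-174032005, minus strand: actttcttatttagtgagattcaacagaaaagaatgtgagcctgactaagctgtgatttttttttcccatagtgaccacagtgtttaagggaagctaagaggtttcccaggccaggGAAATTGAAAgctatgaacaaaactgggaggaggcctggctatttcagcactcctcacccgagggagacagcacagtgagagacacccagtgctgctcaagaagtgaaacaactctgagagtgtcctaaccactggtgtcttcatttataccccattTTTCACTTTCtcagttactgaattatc
Isg15, chr4:156200769-156201068, minus strand: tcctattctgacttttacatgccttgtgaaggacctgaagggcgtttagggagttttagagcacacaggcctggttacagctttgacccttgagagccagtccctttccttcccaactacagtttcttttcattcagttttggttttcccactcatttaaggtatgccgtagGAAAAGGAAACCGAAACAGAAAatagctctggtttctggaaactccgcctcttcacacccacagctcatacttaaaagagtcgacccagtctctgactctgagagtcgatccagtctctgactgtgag
Ifit1, chr19:34640639-34640938, plus strand: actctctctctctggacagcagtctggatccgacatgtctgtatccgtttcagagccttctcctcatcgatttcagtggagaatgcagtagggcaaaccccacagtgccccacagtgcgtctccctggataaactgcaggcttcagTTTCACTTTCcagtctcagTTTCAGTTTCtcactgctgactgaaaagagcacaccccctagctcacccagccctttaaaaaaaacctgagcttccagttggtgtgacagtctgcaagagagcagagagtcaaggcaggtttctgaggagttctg
Irf9, chr14:55603735-55604034, plus strand: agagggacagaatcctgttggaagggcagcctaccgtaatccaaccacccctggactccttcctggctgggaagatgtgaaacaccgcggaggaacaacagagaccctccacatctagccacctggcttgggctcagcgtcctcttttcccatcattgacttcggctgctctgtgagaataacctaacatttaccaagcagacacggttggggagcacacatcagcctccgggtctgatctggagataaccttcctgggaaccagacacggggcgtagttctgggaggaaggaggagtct
In Ifi205 the cores began 134 bases before the start and at base 24 after it, the second on the opposite strand. Isg15 held 3 cores that overlap one another, beginning 78, 72 and 66 bases before the start, and Ifit1 held 2 on the opposite strand at 104 and 85 bases before it. Neither window of Irf9, of which the first is printed, held these letters.

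Of the 31 members with a promoter entry, 14 held at least 1 core (45.2%), against 3.99% of all genes of the table. The gamma-activated site, TTC and GAA with any 3 bases between them, which reads the same on both strands, was found in 9 members (29%), against 9.55% of all genes. Among the 14 members with a core, 13 did not pass the test between inhibitor and DMSO and 1, Ifi205, did. That test called 8% of all genes, so 1 of 14 is no result about members with a core. No entry was found for Dhx58, Ifi204, Mx1, Mx2, Oas2, Parp9, Parp14, Usp18 and Zbp1. A match of letters is a description of the window and not a bound site.

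With the SCD inhibitor, 3 interferon-stimulated genes rose and the other 32 measured did not pass the test. The 3 were Ifi205, a p200 family protein, Usp18, the protease that removes ISG15 from proteins, and Irf9, the DNA-binding partner of STAT2. Isg15 itself, the IFIT, MX and OAS genes and Rsad2, which are among the usual readouts of an interferon response, did not pass. All of these but Ifit3 lay below the median level of all genes, where only 1.09% of genes were called. The test was limma's on all 7 arrays, with p adjusted over all 18820 genes and a threshold of 0.05. It called 8% of all genes, 3.62% higher and 4.37% lower. The 3 higher members are 8.57% of the 35, so the share called in either direction lay near that of all genes. The median difference over the members was 0.03 (log2, inhibitor minus DMSO), against -0.00 over all genes tested. A positive difference was found in 23 members and a negative one in 12, against 8895 and 9925 of all genes. This is a description of the list and no test of it. These members were not adjusted as a list, and 6 were higher and 3 lower at an unadjusted p under 0.05. No count at an unadjusted p was made over all genes, so such counts, here and for the lists below, have no share beside them.

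**Figure D1:**
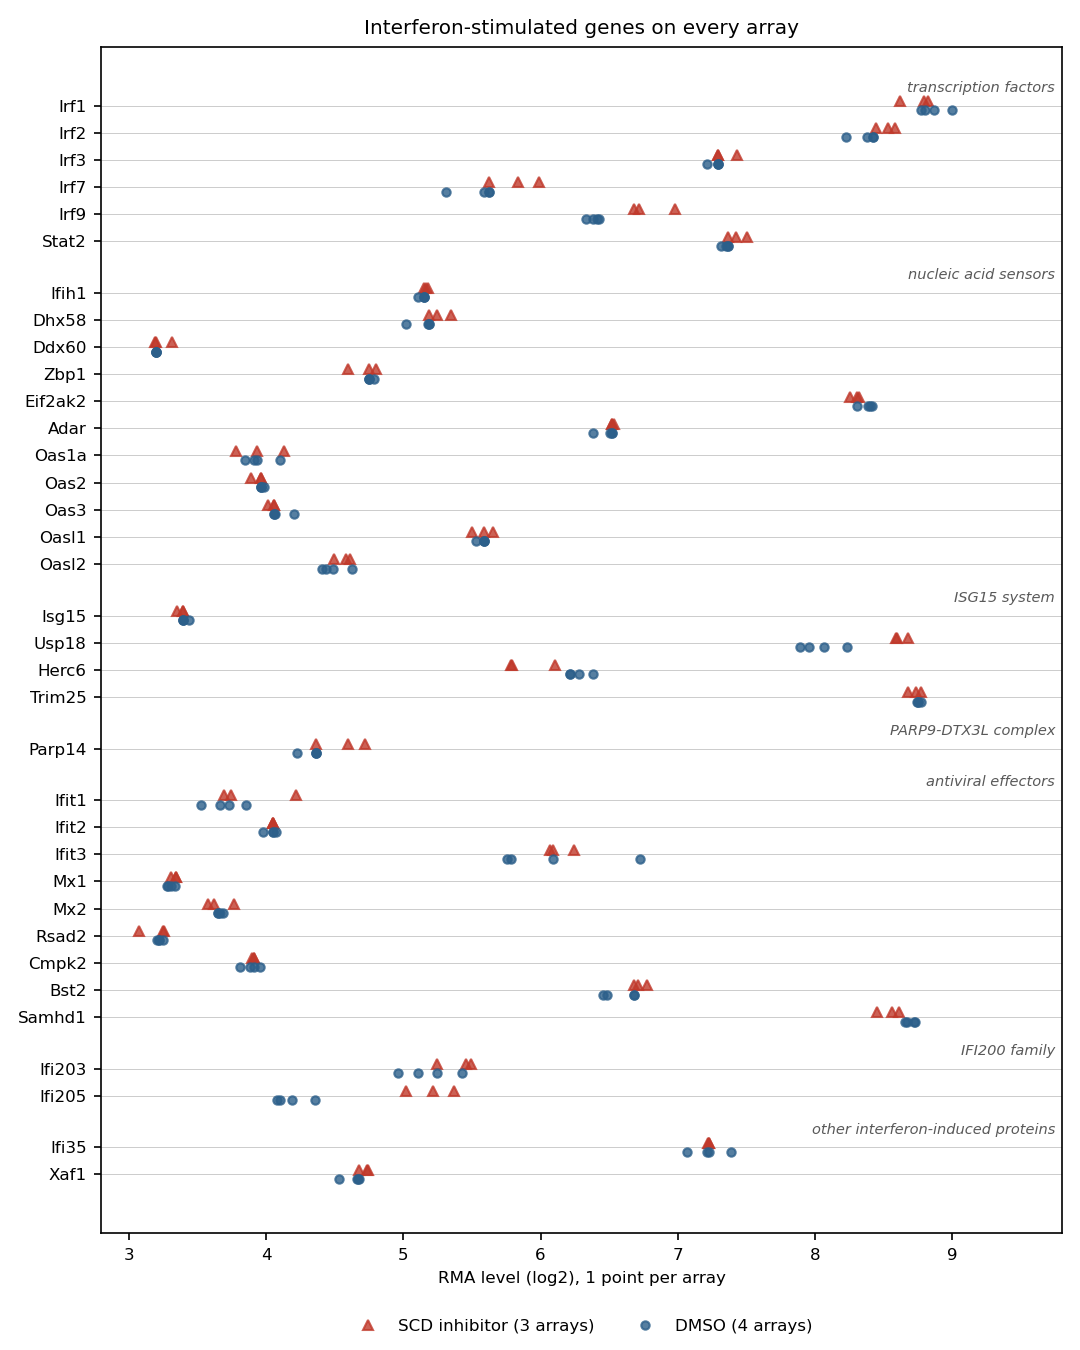
Log2 RMA level (x axis) of the 35 measured interferon-stimulated genes, grouped by role, with a red triangle for each of 3 SCD inhibitor arrays and a blue circle for each of 4 DMSO arrays. In Ifi205, Usp18 and Irf9 all triangles lie to the right of all circles by 0.67, 0.36 and 0.26, and in most other genes the 2 groups overlap.

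Levels of different genes come from different probes and cannot be set against each other. Arrays stood apart without overlap in 6 members. All 3 inhibitor arrays lay above all 4 DMSO arrays in Irf2, Irf9, Usp18 and Ifi205 (11.4% of members, against 8.3% of all genes). They lay below in Herc6 and Samhd1 (5.71%, against 9.02% of all genes).

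Ifi205 encodes a nuclear protein with a pyrin domain and a HIN domain, the second of which binds DNA in this family. Its levels were 5.22, 5.37 and 5.02 in the inhibitor arrays, against 4.35, 4.19, 4.10 and 4.08 in the DMSO arrays. The lowest inhibitor array stood 0.67 above the highest DMSO array. The means were 5.20 ± 0.17 with inhibitor (SD, n = 3) and 4.18 ± 0.12 with DMSO (SD, n = 4), a 2.03-fold increase (log2 1.02, SE 0.097, 95% interval 0.79 to 1.25, limma adjusted p = 0.00165). In this comparison 5 of the 18820 genes were more than 2-fold higher with inhibitor, and Ifi205 ranked 3 by size of increase. It held its call in every setting in which it was tested, with adjusted p between 2.84e-04 and 0.0309. It lies below the median level of all genes, where 1.09% of genes were called, and it was the 1 member called of 20 there.

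How alike Ifi205 and its relatives are in sequence was not examined. Whether probes of 1 read another was not tested, so the value of Ifi205 is uncertain to that extent. Ifi203, of the same family, had levels of 5.25, 5.46 and 5.50 with inhibitor, against 4.96, 5.10, 5.25 and 5.42 with DMSO. The groups overlapped, and the difference of 0.22 did not pass (limma adjusted p = 0.349). A cluster shared by Ifi204 and Ifi211 differed by 0.00 (SE 0.030). Other relatives, named outside the rule for named genes and after their values were seen, are Ifi202b, which differed by 0.23 (limma adjusted p = 0.145), and Ifi207, which differed by 0.08. Ifi208 differed by -0.03, Ifi209 by 0.02, Ifi213 by 0.04 and Ifi214 by -0.04, and Aim2, a DNA sensor of the inflammasome, by -0.13. None of these 7 passed.

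Usp18 encodes the protease that takes ISG15 off its targets and that also sits on IFNAR2 to damp signalling. Its levels were 8.68, 8.59 and 8.60 in the inhibitor arrays, against 8.07, 7.96, 7.89 and 8.24 in the DMSO arrays. The DMSO arrays spread more widely than the inhibitor arrays, and the groups did not overlap. The means were 8.62 ± 0.047 with inhibitor (SD, n = 3) and 8.04 ± 0.15 with DMSO (SD, n = 4), a 1.50-fold increase (log2 0.59, SE 0.081, 95% interval 0.39 to 0.78, limma adjusted p = 0.00716). Leaving out any 1 array kept the call, and leaving out both arrays numbered 1 ended it (limma adjusted p = 0.0984). The other 3 members of the ISG15 system did not pass.

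Isg15 had levels of 3.35, 3.39 and 3.39 with inhibitor, against 3.39, 3.44, 3.39 and 3.39 with DMSO. Most arrays held 1 value, and the difference was -0.03 with a 95% interval from -0.08 to 0.03 (limma adjusted p = 0.53). Trim25, a ubiquitin ligase of the RNA sensing pathway that ISG15 also modifies, differed by -0.02. Herc6, the main ligase that attaches ISG15 in mouse cells, had levels of 5.79, 6.11 and 5.79 with inhibitor, against 6.21, 6.28, 6.21 and 6.39 with DMSO. All inhibitor arrays lay below all DMSO arrays, with a gap of 0.10. The difference of -0.38 (SE 0.089, 95% interval -0.59 to -0.17) had a limma adjusted p of 0.0508 and did not pass the threshold. Herc6 passed when the arrays were centred on their medians (0.0216), quantile normalized again (0.0135) or tested without the dimmest 50% of genes (0.0169), and also without SCD inhibitor 2 (0.0124). It did not pass without any other array, where its adjusted p was between 0.109 and 0.166.

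**Figure D2:**
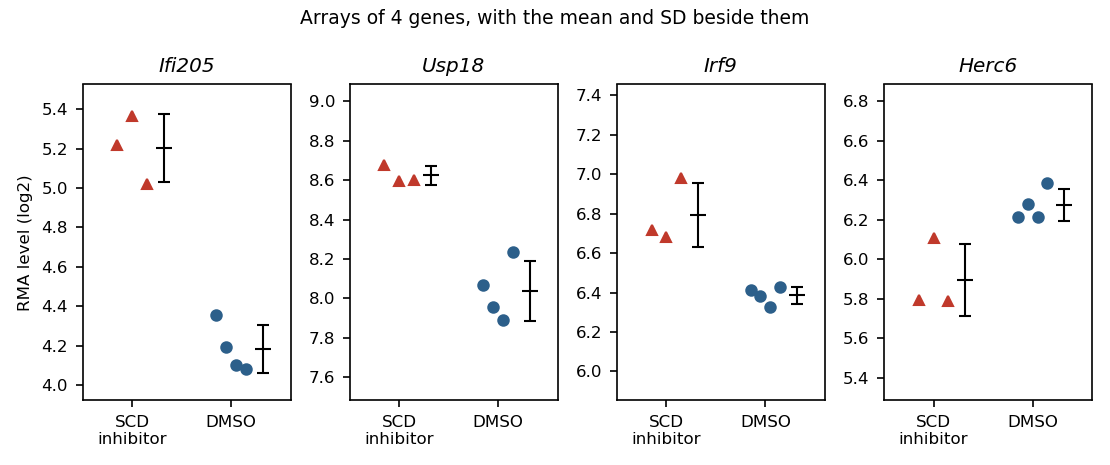
Log2 RMA levels of Ifi205, Usp18, Irf9 and Herc6 (y axis, each panel with its own range), with red triangles for the 3 SCD inhibitor arrays and blue circles for the 4 DMSO arrays, and bars for the mean and SD beside them. Inhibitor arrays lie above DMSO arrays in the first 3 genes (differences of 1.02, 0.59 and 0.41) and below them in Herc6 (-0.38, which did not pass).

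Irf9 was the member of the transcription factors that passed, 1 of 6 measured, against 8% of all genes. All 6 lay above the median level of all genes, where 14.9% of genes were called. That 1 of 6 passed is therefore no result about the group. The levels of Irf9 were 6.72, 6.68 and 6.98 with inhibitor, against 6.41, 6.38, 6.33 and 6.43 with DMSO. SCD inhibitor 3 was the highest, and the other inhibitor arrays still lay 0.26 or more above the highest DMSO array. The means were 6.79 ± 0.16 with inhibitor (SD, n = 3) and 6.39 ± 0.044 with DMSO (SD, n = 4), a 1.33-fold increase (log2 0.41, SE 0.073, 95% interval 0.23 to 0.58, limma adjusted p = 0.0198). The call is lost when any 1 DMSO array is left out: the limma adjusted p was then 0.0616 (DMSO 1 left out), 0.065 (DMSO 2), 0.0692 (DMSO 3) or 0.0595 (DMSO 4). It was 0.112 without both arrays numbered 1.

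The partner of Irf9 in the complex, Stat2, differed by 0.08 (SE 0.035, limma adjusted p = 0.232). Irf7, which amplifies interferon production, had levels of 5.62, 5.84 and 5.99 with inhibitor, against 5.62, 5.62, 5.31 and 5.59 with DMSO. SCD inhibitor 1 lay level with the DMSO arrays, and the difference of 0.28 did not pass (limma adjusted p = 0.202). Irf2, a repressor of interferon target genes, had levels of 8.45, 8.53 and 8.58 with inhibitor, against 8.22, 8.42, 8.42 and 8.38 with DMSO. Its groups were separated by only 0.021, and the difference of 0.16 did not pass (limma adjusted p = 0.179). Irf1, an activator induced by interferon gamma, differed by -0.11 on the cluster used and by -0.14 on its second one, and Irf3, the factor that first switches on interferon genes, by 0.07.

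None of the 11 nucleic acid sensors passed, against 8% of all genes. All but Eif2ak2 and Adar lay below the median level of all genes, where 1.09% of genes were called. That none passed is therefore no result about the group. The differences of the sensors ran from -0.08 to 0.12. Eif2ak2, the kinase PKR that halts translation on binding double-stranded RNA, had the lowest of these, with levels of 8.25, 8.32 and 8.31 with inhibitor, against 8.31, 8.40, 8.39 and 8.41 with DMSO (difference -0.08, SE 0.032, limma adjusted p = 0.187). Dhx58, which encodes the RNA sensor LGP2, had the highest, with 5.25, 5.35 and 5.19 with inhibitor, against 5.19, 5.18, 5.02 and 5.19 with DMSO (difference 0.12). In both genes the groups overlapped. Ifih1, the long RNA sensor MDA5, differed by 0.03 and Adar, which edits double-stranded RNA, by 0.04. Zbp1, a sensor of left-handed nucleic acid that can trigger cell death, differed by -0.04. Ddx60, a helicase that aids RNA sensing, was listed at 3.20 on all 4 DMSO arrays and at 3.19, 3.31 and 3.20 on the inhibitor arrays.

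The oligoadenylate synthetases make the messenger that activates RNase L. Oas1a had levels of 3.93, 3.78 and 4.13 with inhibitor, against 3.84, 3.93, 4.10 and 3.91 with DMSO, and its means did not differ to 2 decimals (difference -0.00, 95% interval -0.22 to 0.22). A cluster shared by Oas1a and its near-copy Oas1g likewise differed by 0.00. Oas2 differed by -0.03 and Oas3 by -0.05. The related Oasl1, known in mouse to restrain translation of Irf7, differed by 0.01 and Oasl2 by 0.07.

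None of the 9 antiviral effectors passed, against 8% of all genes. All but Ifit3, Bst2 and Samhd1 lay below the median level of all genes, where 1.09% of genes were called. That none passed is no result about this group either. Samhd1, which destroys the nucleotides needed to copy viral DNA, had levels of 8.45, 8.61 and 8.56 with inhibitor, against 8.67, 8.72, 8.66 and 8.73 with DMSO. The inhibitor arrays lay below all DMSO arrays by 0.043, and the difference of -0.16 did not pass (SE 0.042, limma adjusted p = 0.0824). It passed after centring (0.0377), after a further quantile normalization (0.0309) and without the dimmest 50% of genes (0.0421). Bst2, which tethers budding virus to the cell surface, had levels of 6.68, 6.78 and 6.71 with inhibitor, against 6.45, 6.68, 6.49 and 6.68 with DMSO. The groups overlapped, and the difference was 0.15 (limma adjusted p = 0.274).

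The IFIT proteins bind foreign RNA ends and block its translation. Ifit1 had levels of 3.70, 3.75 and 4.21 with inhibitor, against 3.73, 3.53, 3.67 and 3.85 with DMSO, and SCD inhibitor 3 alone lay above the DMSO range (difference 0.19, SE 0.14). Ifit3 had levels of 6.07, 6.09 and 6.24 with inhibitor, against 5.78, 5.76, 6.09 and 6.73 with DMSO. DMSO 4 was the highest of all arrays, and the SD among DMSO arrays was 0.45, so the difference of 0.04 carries a 95% interval from -0.52 to 0.61. Ifit3 has a near-copy, Ifit3b, and its value is uncertain to the extent that probes read both. Ifit2 was listed at 4.05 on all inhibitor arrays and differed by 0.01. Mx1 and Mx2, antiviral dynamin-like GTPases, differed by 0.03 and -0.01. Rsad2, which encodes viperin, differed by -0.03 and its genome neighbour Cmpk2, a mitochondrial nucleotide kinase, by 0.02.

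Parp14, a transferase of ADP-ribose grouped here with Parp9 and Dtx3l, had levels of 4.37, 4.60 and 4.72 with inhibitor, against 4.37, 4.37, 4.23 and 4.37 with DMSO. SCD inhibitor 1 was level with the DMSO arrays, and the difference of 0.23 did not pass (limma adjusted p = 0.178), although it did without SCD inhibitor 1 (0.0369). The 2 clusters shared by Parp9 and Dtx3l, which form a complex of an ADP-ribose binding protein and a ubiquitin ligase, differed by -0.05 and -0.11. Xaf1, a promoter of apoptosis, differed by 0.08 and Ifi35, a partner of the signalling protein NMI, by 0.00. The cluster that Ifi47, an interferon-induced GTPase, shares with an olfactory receptor gene differed by 0.02.

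**Figure D3:**
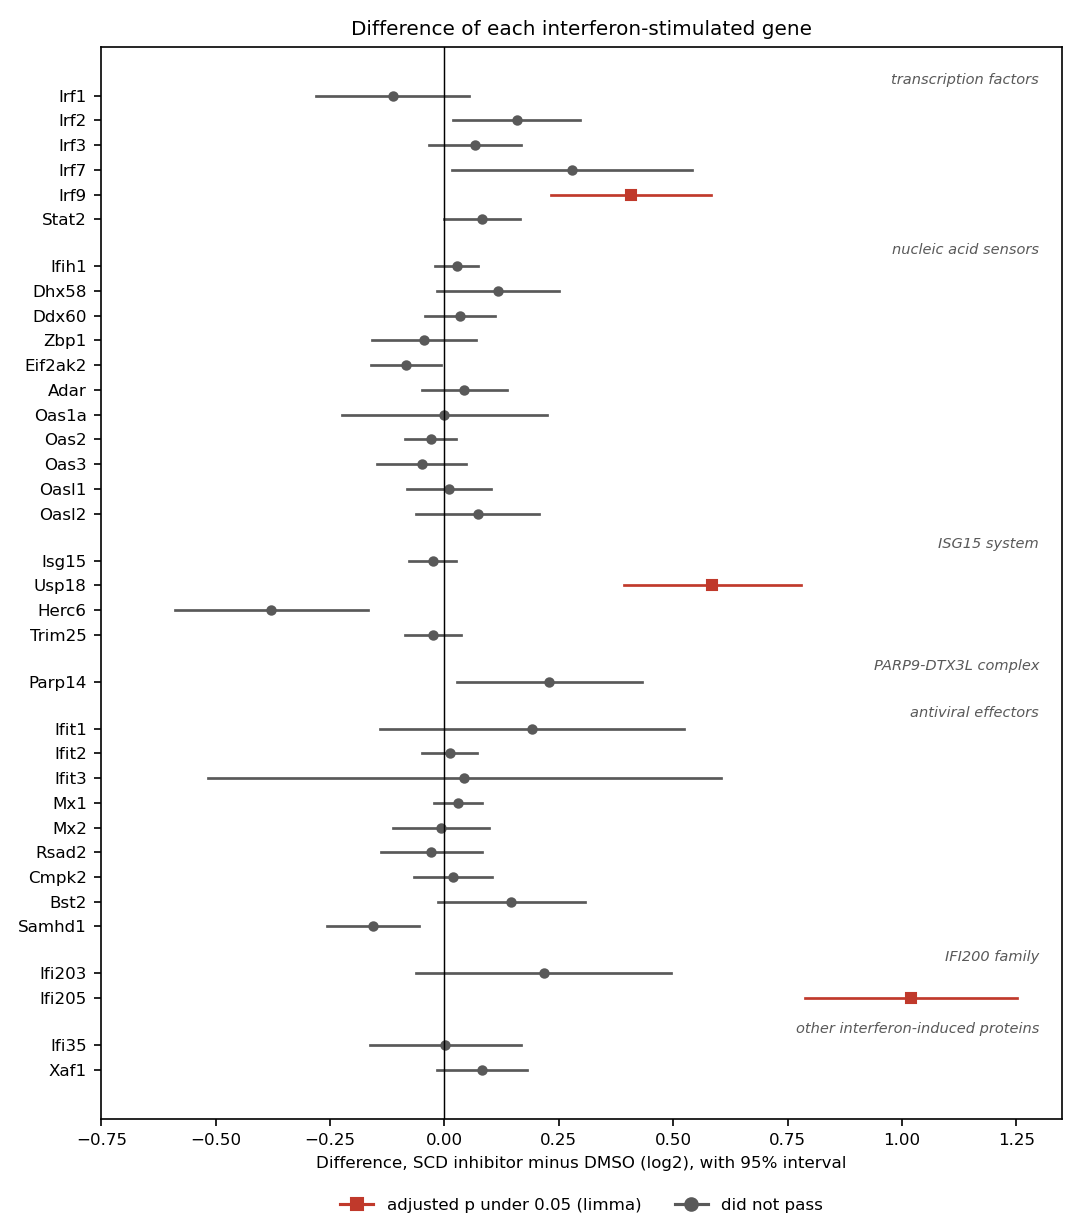
Difference in log2 RMA level, SCD inhibitor minus DMSO (x axis), with its 95% interval from limma, for the 35 measured members grouped by role. Red squares mark Ifi205, Usp18 and Irf9, which passed at an adjusted p under 0.05, and grey circles the 32 that did not.

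The precision differed between members. Of the 32 that did not pass, 28 had a 95% interval wholly within 0.5 of no difference on the log2 scale, and the intervals of Irf7, Herc6, Ifit1 and Ifit3 reached 0.5 or beyond. A difference under 0.1 was measured in 22 members. Among the members, 9 had the same deposited value on at least 4 of the 7 arrays (25.7%), against 30.7% of all genes. Of the 15 members above the median level of all genes 2 were called, and 14.9% of all genes there were. No detection calls were used, so nothing is said on whether a dim member was expressed.

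**Figure D4:**
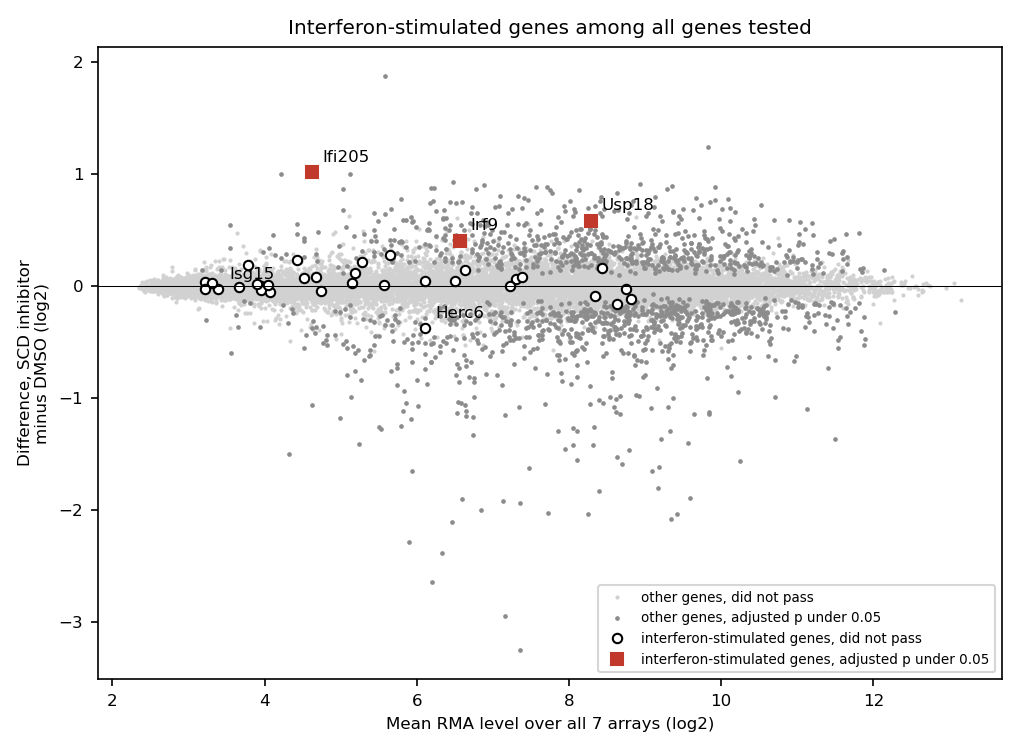
Difference in log2 RMA level, SCD inhibitor minus DMSO (y axis), against the mean level over all 7 arrays (x axis) for the 18820 genes tested, with dark grey points for genes that passed (8%) and light grey points for those that did not. Open circles are the 32 members that did not pass and red squares Ifi205, Usp18 and Irf9.

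The rest of the interferon pathway was read from lists that hold none of the 40 members. Of 20 interferon ligand genes 14 were measured and 0 were called by limma, against 8% of all genes. All but Ifnl2 lay below the median level of all genes, where 1.09% of genes were called. That none passed is therefore no result about the ligands. None of the ligand genes had an unadjusted p under 0.05. Their median difference was -0.02. Ifnb1, which encodes interferon beta, had levels of 3.39, 3.49 and 3.53 with inhibitor, against 3.52, 3.49, 3.62 and 3.35 with DMSO (difference -0.03). The ligands with the smallest p were Ifna11 (-0.06) and Ifnl2 (-0.14), and neither passed.

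Of 22 genes of receptors and proximal signalling 21 were measured, with 1 higher and 3 lower and a median difference of -0.01. The 4 called are 19% of those measured, against 8% of all genes. All but Ifnlr1 and Socs1 lay above the median level of all genes, where 14.9% of genes were called. The share is therefore near that of genes of like level, and it is a description of the list and no test of it. Jak1, a kinase that interferon receptors use, fell, with levels of 10.57, 10.61 and 10.61 with inhibitor, against 11.03, 10.98, 10.93 and 10.95 with DMSO (difference -0.38, SE 0.027, limma adjusted p = 5.1e-04). The groups lay far apart for their spread, and the call held in all alternatives run. Ifnar2, the receptor chain on which USP18 acts, had levels of 10.22, 10.28 and 10.37 with inhibitor, against 10.43, 10.51, 10.46 and 10.51 with DMSO. It fell by 0.19 on the log2 scale (SE 0.041, limma adjusted p = 0.0392), and the call was lost without any 1 array other than SCD inhibitor 3, with adjusted p up to 0.125. The other chain, Ifnar1, differed by -0.01 and Tyk2 by 0.01.

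Among the feedback inhibitors of cytokine receptors, Socs3 had levels of 6.42, 6.41 and 6.54 with inhibitor, against 6.22, 6.15, 6.25 and 6.10 with DMSO, and rose (difference 0.27, limma adjusted p = 0.0171). Its transcript clusters disagreed, and their mean did not pass (0.207). The call of Socs3 was also lost without DMSO 2 (0.0584), without SCD inhibitor 3 (0.0521) and without both arrays numbered 1 (0.0992). Socs2, which acts mainly on growth hormone signalling, fell by 0.31 (limma adjusted p = 0.0323) and lost its call without any 1 array other than DMSO 1. Socs1, the main SOCS inhibitor of interferon receptors, had levels of 5.59, 5.48 and 5.64 with inhibitor, against 5.43, 5.32, 5.37 and 5.25 with DMSO. Its groups did not overlap, but the difference of 0.23 did not pass (limma adjusted p = 0.0517). It passed after a further quantile normalization (0.048), after centring (0.0282) and with array weights (0.0496).

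Of 28 genes of nucleic acid sensing upstream of interferon 25 were measured and 0 were called by limma, against 8% of all genes. The genes lay on both sides of the median level of all genes, above which 14.9% of genes were called and below which 1.09%. That none passed is no result about this list, which was not tested against all genes. The median difference of the list was -0.02, with 4 higher and 4 lower at an unadjusted p under 0.05. The smallest p-values were those of the adaptor genes Traf6 (difference -0.22, limma adjusted p = 0.0529) and Myd88 (0.13, limma adjusted p = 0.0874). Traf6 passed after a further quantile normalization (0.0185), after centring (0.0285) and without the dimmest 50% of genes (0.0217), and Myd88 passed without DMSO 1 (0.0424).

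Of 69 further interferon-stimulated genes 54 were measured, with 3 higher and 3 lower and a median difference of 0.01. The share called, 11.1%, lay near the 8% of all genes. Ifi30, a thiol reductase of lysosomes, rose, with levels of 9.65, 9.60 and 9.72 with inhibitor, against 9.32, 9.14, 9.18 and 9.11 with DMSO (difference 0.47, limma adjusted p = 0.00436). Trim14, an adaptor of antiviral signalling, fell, with levels of 5.86, 5.70 and 5.50 with inhibitor, against 6.48, 6.44, 6.44 and 6.36 with DMSO (difference -0.74, limma adjusted p = 0.00309). Tor3a, an ATPase of the endoplasmic reticulum, fell, with levels of 8.63, 8.71 and 8.54 with inhibitor, against 9.39, 9.22, 9.22 and 9.39 with DMSO (difference -0.68, limma adjusted p = 0.00151). These 3 genes moved in both directions and held their calls in all alternatives run.
The helicase gene Znfx1 (difference 0.35, limma adjusted p = 0.0229) and the immunity-related GTPase Irgm1 (0.22, limma adjusted p = 0.0385) also rose, and the exonuclease Isg20 fell by 0.30 (limma adjusted p = 0.0229). Each of these 3 calls was lost when some single arrays were left out: Znfx1 without DMSO 2, 3 or 4 or SCD inhibitor 2 or 3 (highest adjusted p 0.0923), Irgm1 without any 1 array (highest 0.092), and Isg20 without DMSO 2, 3 or 4 or SCD inhibitor 1 or 2 (highest 0.0712). Without both arrays numbered 1 Irgm1 (0.131), Isg20 (0.112) and Ifnar2 (0.108) lost theirs.

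**Figure D5:**
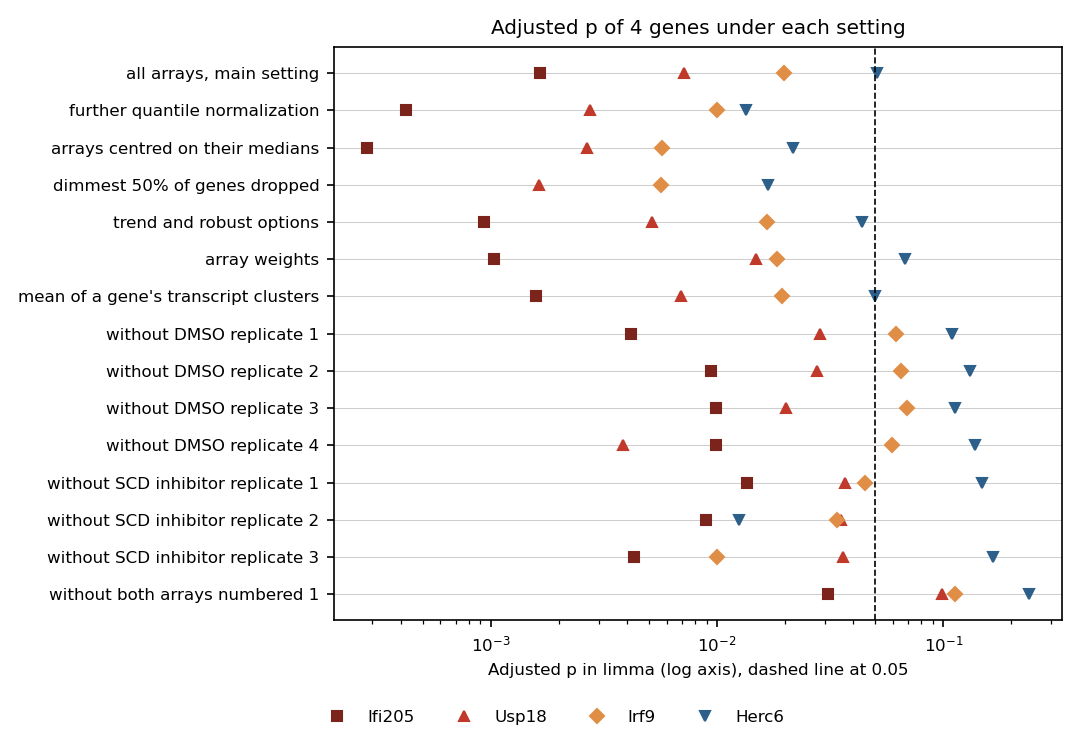
Limma adjusted p on a log axis (x axis) of Ifi205, Usp18, Irf9 and Herc6 under each setting (y axis) but the replicate block, which is not drawn. A dashed line marks the threshold of 0.05. Ifi205 stays left of the line wherever it was tested and Usp18 everywhere but without both arrays numbered 1, while Irf9 (0.0198 with all arrays) and Herc6 (0.0508) lie on either side of it depending on the setting.

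Over all genes the correlation was 0.9987 to 0.9995 between arrays of the same group and 0.9971 to 0.998 between arrays of different groups. The adipocyte label was checked against 10 markers, among them Adipoq and Fabp4. Their mean levels were 10.26 to 12.71, which cannot be read as amounts without detection calls, and 0 were called by limma (2 were higher at an unadjusted p under 0.05). All lay above the median level of all genes, where 14.9% of genes were called. Of 9 precursor or fibroblast markers 5 rose (Pdgfra, Pdgfrb, Col3a1, Col1a1 and Dlk1, by 0.32 to 0.89) and Fn1 fell by 0.26, a share called of 66.7%, against 8% of all genes. All of the 9 but Cd34 lay above the median level of all genes, where 14.9% of genes were called. Dlk1 (limma adjusted p = 0.0402) lost its call without any 1 array other than DMSO 1 (up to 0.129). Without both arrays numbered 1 Dlk1 (0.0866), Pdgfrb (0.0906) and Fn1 (0.0807) lost theirs. The mean over that list was 9.63 to 9.71 on the inhibitor arrays, against 9.32 to 9.40 on the DMSO arrays. Of 15 leukocyte markers 1 rose, Fcer1g (difference 0.40, limma adjusted p = 0.00487, and 0.0592 without both arrays numbered 1), and 10 had a negative difference. The share called was 6.67%, against 8% of all genes. All of these markers but Cd68 lay below the median level of all genes, where 1.09% of genes were called. The share is a description of the list and no test of it. The mean over the list was 4.08 to 4.11 on the inhibitor arrays, against 4.08 to 4.12 on the DMSO arrays. Lyz2, a lysozyme of macrophages, lay lower on all inhibitor arrays than on any DMSO array, and its difference of -0.33 did not pass (limma adjusted p = 0.146). The pan-leukocyte gene Ptprc differed by 0.00 and the macrophage gene Adgre1 by 0.01. Lyz2, Ptprc and Adgre1 were chosen after their values were seen. The 6 endothelial markers had 0 calls, and all lay below the median level of all genes, where 1.09% of genes were called. Their list mean was 3.61 to 3.66 with inhibitor, against 3.62 to 3.69 with DMSO. In bulk RNA a change in the number of cells of a type and a change in RNA per cell cannot be told apart, and the part of the precursor markers in the differences of Ifi205, Usp18 and Irf9 was not tested.

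Which array was highest or lowest varied between members. Within the inhibitor group SCD inhibitor 3 was the highest in 12 members and SCD inhibitor 2 in 11, and SCD inhibitor 1 was the lowest in 17 (48.6%, against 47.6% of all genes). Within the DMSO group DMSO 4 was the highest in 10 members (28.6%, against 19.4% of all genes) and DMSO 3 the lowest in 12 (34.3%, against 19.6% of all genes).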

How the data were processed

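Total RNA of 7 samples (SCD inhibitor 3, DMSO 4) was read on 1 array each, and samples were grouped by their treatment label. The deposited values are log2 expression levels of 28996 transcript clusters to which the authors applied RMA (named, without settings, in the submitters' processing notes). The method corrects background, equalises the arrays' distributions and summarises probes, so it can compress changes of dim and bright genes. For the version of RMA, the array build and filters, the details were not given in the sources used here.

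Gene names came from the array annotation, which gave 1 symbol to 21218 clusters, several to 1881 and none to 5897. Clusters with 1 symbol gave 18820 genes, each represented by its cluster with the highest mean, with no filter on dim genes. Limma 3.58.1 in R 4.3.3 (lmFit, then eBayes with trend and robust off) was fitted on all 7 arrays with a term for the inhibitor (5 residual and 1.68 prior degrees of freedom), with Benjamini-Hochberg adjustment over the 18820 genes and calls at an adjusted p under 0.05. Clusters with several symbols were tested in a fit over all 28996 clusters. The procedure was tested on simulated data. The number of arrays limits the precision: the median SE of a difference was 0.039.

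The members, the pathway and marker lists and the tests were chosen with earlier results of these data known. Named are all members, from each pathway list up to 6 called genes or else the 2 with the smallest p, 7 core pathway genes whatever their result, and called markers. Older symbols in the lists were matched through RefSeq synonyms (GRCm38.p6). Promoters were searched in Python 3.11.15 with pandas 2.3.3. Alternatives tried were a block for replicate numbers, quantile normalization on top of RMA, centring on array medians, dropping the dimmest 50% of genes, limma's trend and robust options, array weights, the mean of a gene's clusters, and leaving out single arrays or both arrays numbered 1.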

Additional observations from a re-analysis of the deposited data

Results flagged for a closer look

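The DMSO group, with 4 arrays, was searched for arrays that stood far from the other 3 by Dixon's test at its 95% critical value. Chance marks about 1 in 20 groups, a rate that does not allow for values that recur across arrays. Of 59 genes 13 were marked, 12 of them members of the list. The search was not run over all genes, so this count has no share beside it and is no result about the members. Of all genes 30.7% had the same value on at least 4 of the 7 arrays. In 6 of the 13 the gap was under 0.1 on the log2 scale, beside other arrays that held nearly or exactly 1 value. DMSO 3 was the low array in Irf3 (7.21, others 7.29), Irf7 (5.31, others 5.59 to 5.62), Dhx58 (5.02, others 5.18 to 5.19), Adar (6.38, others 6.51 to 6.52) and Parp14 (4.23, others 4.37). DMSO 2 was the low array in Ifih1 (5.10, others 5.15), Oasl1 (5.53, others 5.58) and Xaf1 (4.53, others 4.67 to 4.68), and the high array in Isg15 (3.44, others 3.39). DMSO 1 was the high array in Oas2 (3.99, others 3.96) and Oas3 (4.20, others 4.06), and the low array in Znfx1 (8.86, others 9.06 to 9.10), a helicase gene of the wider pathway. DMSO 4 was the high array in Zbp1 (4.79, others 4.75). Of these 13 genes Znfx1 is the one that was called, and its call held without DMSO 1 (limma adjusted p = 0.0158). Groups of 3, as the inhibitor arrays are, were not searched.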

How the results depend on the processing

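The 15 alternatives changed 1 choice at a time, and the choice to leave out both arrays numbered 1 follows an earlier account of these data. The number of members called higher was 3, from 2 to 4 when single arrays were left out, and 1 (Ifi205) without both arrays numbered 1. The number of members called lower was 0, and 2 (Herc6 and Samhd1) after quantile normalization, after centring and without the dimmest 50% of genes. It was 1 (Herc6) with the trend and robust options or the mean of a gene's clusters, and from 0 to 1 without single arrays. The median difference of the members was 0.03 and moved to 0.043 after centring and 0.044 without the dimmest genes. That filter left 15 members and took out Ifi205. Over the other pathway lists 4 genes were higher (1 to 4 without single arrays, 2 without both arrays numbered 1) and 6 lower (3 to 6 without single arrays). Over all genes 682 were higher and 823 lower. The higher count was 1032 after quantile normalization, 1117 after centring, 369 to 712 without single arrays and 434 without both arrays numbered 1. The lower count was 541 to 643 without single arrays and 374 without both arrays numbered 1. Over 60 named genes, 876 values under an alternative were computed. In 58 of them, from 12 genes, a call was lost, in 18, from 7 genes, one was gained, and no called gene changed sign. In 38 the sign differed from that with all arrays, in 15 genes that passed under neither. Unless the alternative itself removed arrays or genes, the cause was not tested. The number of arrays and, in dim genes, values that recur across arrays limit what could be detected.

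Sample numbers recur in both groups, and whether they pair the samples is not settled by the values. Deviations of arrays with the same number correlated at 0.17, 0.14 and 0.08. Among arrays with different numbers, SCD inhibitor 2 and DMSO 4 correlated at 0.16, and all others between -0.17 and -0.01. With the replicate block 437 genes were higher and 459 lower over all genes. Among the members 3 were higher under the replicate block (Ifi203, Ifi205 and Usp18) and 0 lower, and the limma adjusted p of Irf9 was 0.111.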
